A study of Mus musculus with 11 samples.

Results

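The Bcl2 family genes described here are 8 listed survival and death genes, Bcl2, Bcl2l1, Mcl1, Bcl2l11, Bid, Bad, Bak1 and Bax, followed across 11 microarrays of mouse CD8 T cells. A gene was represented by the row of the deposited table that names it alone, and by the row of highest mean where several do. Such a row was found for 7 of the 8, among 20259 genes with a row, and all 7 were among the 15194 genes tested. Bax was not analysed here, since no row names it, alone or beside other genes, in the annotation used. Donor mice carried a transgenic T cell receptor of high avidity, and their CD8 cells bore the surface marker Thy1.2, which tells them from cells of the host. Donors and hosts were each wild type (WT) or deficient in galectin-3 (KO), a secreted lectin that binds galactose-containing glycans. Hosts, also WT or KO, bore NT2.5 mammary tumors and received cyclophosphamide at 100 mg/kg on day 8, a whole-cell GM-CSF vaccine on day 9 and the T cells on day 10. Every group shared this treatment, and T cells were sorted by Thy1.2 from tumors 5 days after transfer. The groups were WT T cells in WT hosts (n = 4), the reference, WT T cells in KO hosts (n = 3) and KO T cells in KO hosts (n = 4). KO T cells in WT hosts were not analysed here, so effects of the T cell genotype could be read in KO hosts alone. The labels give neither donor nor host age, and they do not say whether an array stands for 1 mouse or a pool.

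Proteins of the Bcl2 family decide whether the outer membrane of mitochondria is opened, which releases cytochrome c and starts the caspases of the intrinsic death pathway. Bcl2, Bcl-xL (gene Bcl2l1) and Mcl-1 keep the membrane closed. BH3-only proteins such as Bim (gene Bcl2l11), Bid and Bad sense stress and bind the survival proteins or, in some cases, the effectors, and Bak (gene Bak1) and Bax form the pores. In T cells the balance of Bim and Bcl2 is known to set how many effector cells die when a response contracts, cytokines such as interleukin 7 maintain Bcl2, and Mcl1 is required for T cell survival.

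T cell markers were bright on every array. Cd8a had a log2 signal between 10.9 and 11.3 and Thy1 between 9.67 and 10.3, and 10 of 12 listed T cell markers were tested, with a mean between 9.57 and 9.82 per array. Lgals3, which encodes galectin-3, was at 8.31 ± 0.17 (SD, n = 4), 8.27 ± 0.22 (SD, n = 3) and 7.43 ± 0.14 (SD, n = 4) in the 3 groups in the order given above, so every array of KO T cells was below every array of WT T cells. The precision of each value below is limited by the number of arrays, and in sorted but bulk RNA fewer cells of a type and less RNA per cell cannot be told apart.

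No member differed between groups past the threshold, a limma adjusted p under 0.05 over all genes, in any of the 3 comparisons, where 0% of genes tested did. At an unadjusted limma p under 0.05, Bak1 alone (1 of 7, lower) was found between KO and WT hosts in WT T cells, where 7.48% of genes were (3.62% higher and 3.86% lower). Bad alone (1 of 7, lower) was found when KO T cells from KO hosts were set against the reference, where 8.46% of genes were (4.79% higher and 3.67% lower). Between the T cell genotypes in KO hosts 0 of 7 were found, where 3.42% of genes were (1.93% higher and 1.48% lower). Arrays of the compared groups did not overlap for 2 of 7 members between hosts, Bcl2 higher and Bak1 lower, where 8.89% of genes did not. They overlapped for all 7 members in the other comparisons, where 5.02% of genes (2.61% higher and 2.41% lower) and 4.07% (2.26% higher and 1.81% lower) did not overlap. A single member of 7 is a coarser step than any of these shares.

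The members' median log2 fold change was -0.10, 0.045 and 0.12 in these comparisons, beside -0.025, -0.017 and 0.011 over all genes tested. The first and the second comparison share the reference arrays, the first and the third share the WT T cells of KO hosts, and the second and the third share the KO T cells.

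**Figure D1:**
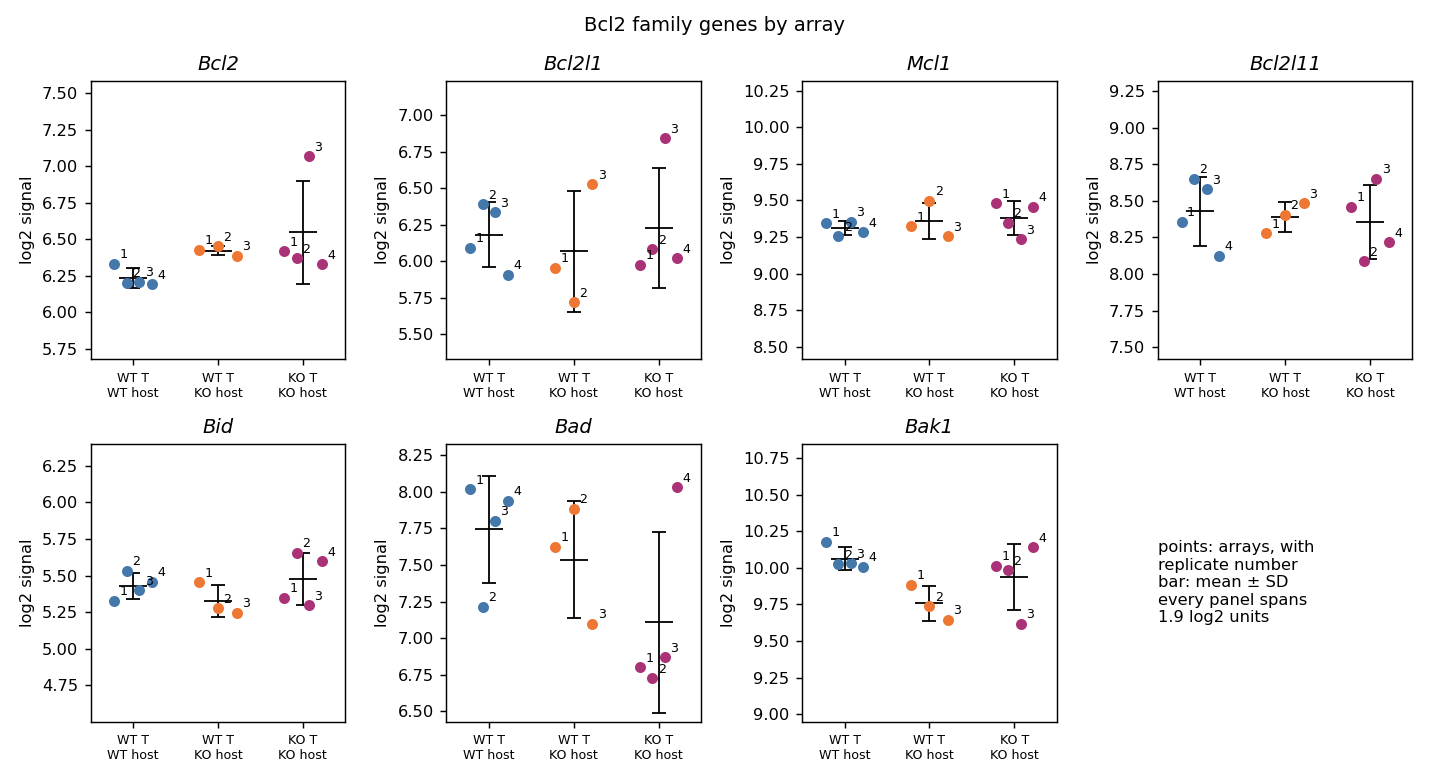
Log2 signal of the 7 measured Bcl2 family genes on each array, in the 3 groups, with the replicate number beside each point and the mean ± SD as a bar. Panels share 1 span of the axis, so the wide scatter of Bad and Bcl2l1 can be set against the narrow scatter of Mcl1, and Bcl2 in array 3 of KO T cells stands at 7.07.

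Promoter sequences of 3 members are given because 2 of them, Bcl2 and Bak1, were the members whose arrays did not overlap between hosts, and because Bcl2l11 is a known target of forkhead (FOXO) transcription factors. They span 250 bases before to 50 after a RefSeq start site, on the strand of the gene in build GRCm38.p6. Capitals mark matches on either strand to any of 4 motifs, which are GTAAACA (forkhead), TTCNNNGAA (STAT), GGGGCGGGG (Sp1) and CACGTG (E-box).
Bcl2, chr1:106714241-106714540, minus strand: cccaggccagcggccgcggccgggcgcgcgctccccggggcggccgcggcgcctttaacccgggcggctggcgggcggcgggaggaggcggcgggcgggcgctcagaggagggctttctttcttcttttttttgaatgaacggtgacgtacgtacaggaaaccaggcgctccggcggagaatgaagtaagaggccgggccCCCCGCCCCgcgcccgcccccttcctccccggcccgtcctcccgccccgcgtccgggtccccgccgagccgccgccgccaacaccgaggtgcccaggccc
Bcl2l11, chr2:128125788-128126087, plus strand: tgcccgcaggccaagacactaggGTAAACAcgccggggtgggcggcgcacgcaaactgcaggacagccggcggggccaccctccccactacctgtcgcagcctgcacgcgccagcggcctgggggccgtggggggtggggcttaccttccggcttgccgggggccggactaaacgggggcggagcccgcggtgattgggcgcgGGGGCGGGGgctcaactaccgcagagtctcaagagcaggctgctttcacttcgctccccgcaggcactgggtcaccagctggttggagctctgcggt
Bak1, chr17:27028578-27028877, minus strand: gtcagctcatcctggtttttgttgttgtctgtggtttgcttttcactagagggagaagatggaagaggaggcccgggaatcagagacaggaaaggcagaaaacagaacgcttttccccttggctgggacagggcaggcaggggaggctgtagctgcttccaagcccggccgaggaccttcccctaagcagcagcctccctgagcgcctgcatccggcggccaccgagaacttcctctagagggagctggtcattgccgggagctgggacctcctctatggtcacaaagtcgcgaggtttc
All 8 listed genes had an entry, 12 start sites in all. The forkhead letters were in 1 of these 12 windows, that of Bcl2l11 printed above, where they begin at position -227 from the start site, and in 3.65% of 32851 promoters. Another window of Bcl2l11, chr2:128127325-128127624 and not printed, held none of the 4 motifs. The Sp1 letters were in 5 of the 12 windows (Bad, Bax, Bcl2, Bcl2l11 and Bid) and in 11.4% of all promoters. The STAT letters were in 0 of 12 and in 8.3% of all, and the E-box in 1 of 12, that of Bax, and in 7.15%. None of the 4 was found in the window of Bak1. The printed motif matches do not overlap each other.

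Bcl2, the survival protein for which the family is named, had log2 signals of 6.33, 6.20, 6.21 and 6.19 in WT T cells from WT hosts. It was at 6.43, 6.45 and 6.39 in WT cells from KO hosts. In KO T cells it was at 6.42, 6.37, 7.07 and 6.33. Each of the 3 arrays of WT cells from KO hosts was thus above each of the 4 from WT hosts, while KO T cells overlapped the reference by 1 array, and their array 3 stood well above all others. WT T cells differed between hosts by 0.19 (SE 0.16, 95% interval -0.17 to 0.54; limma adjusted p = 0.734), with an exact permutation p (two-sided) of 0.0571. Groups did not overlap in that direction for 3.57% of genes tested. KO T cells differed from the reference by 0.31 (SE 0.15, 95% interval -0.017 to 0.64; limma adjusted p = 0.600; exact two-sided permutation p = 0.0571), and by 0.14 to 0.38 with any 1 array left out, the lowest without array 3 of KO T cells. Between T cell genotypes in KO hosts the difference was 0.12 (SE 0.16, 95% interval -0.23 to 0.48; limma adjusted p = 0.9998), and it was -0.050 without array 3.

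Bcl2l1, which encodes the survival protein Bcl-xL, varied more between arrays of a group than between groups. It was at 6.09, 6.39, 6.33 and 5.91 in the reference, at 5.96, 5.72 and 6.53 in WT cells from KO hosts and at 5.98, 6.08, 6.84 and 6.02 in KO T cells. Array 3 of either KO-host group gave the highest value of its group. Group differences were -0.11 (95% interval -0.63 to 0.40) between hosts, 0.048 (95% interval -0.43 to 0.53) for KO T cells against the reference and 0.16 (95% interval -0.35 to 0.68) between T cell genotypes. These intervals span a large part of the scale of the gene itself, whose 11 values covered 1.12 log2 units. Without array 3 of KO T cells the last difference was -0.042, and the difference from the reference was -0.16.

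Mcl1, a survival protein of short life, had the steadiest signal of the members. It was at 9.35, 9.26, 9.35 and 9.28 in the reference, at 9.32, 9.50 and 9.26 in WT cells from KO hosts and at 9.48, 9.35, 9.23 and 9.46 in KO T cells. The 3 groups overlapped throughout. The SD between arrays within groups was 0.098, with only 3.49% of genes tested below it, and the median over genes was 0.21. Its fold change between hosts was 1.03 (95% interval 0.88 to 1.22), that of KO T cells against the reference 1.05 (95% interval 0.90 to 1.22) and that between T cell genotypes 1.01 (95% interval 0.86 to 1.19). These are the narrowest intervals of the 7 members.

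Bcl2l11, which encodes the BH3-only protein Bim, was at 8.36, 8.65, 8.58 and 8.12 in the reference. It was at 8.28, 8.41 and 8.48 in WT cells from KO hosts and at 8.46, 8.09, 8.65 and 8.22 in KO T cells. Means of the groups lay within 0.074 of each other, less than the SD within the reference (0.24). The difference was -0.039 between hosts (95% interval -0.39 to 0.31), -0.074 for KO T cells against the reference (95% interval -0.40 to 0.25) and -0.036 between T cell genotypes (95% interval -0.39 to 0.32). Its limma adjusted p was 0.946, 0.876 and 0.9998 in that order.

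Bid, a BH3-only protein that caspase-8 cleaves and that so links death receptors to mitochondria, was the member of lowest margin above the filter, by 1.08 log2 units. It was at 5.33, 5.53, 5.40 and 5.46 in the reference, at 5.45, 5.28 and 5.25 in WT cells from KO hosts and at 5.35, 5.65, 5.30 and 5.60 in KO T cells. Groups overlapped in all 3 comparisons. Differences were -0.10 (SE 0.12) between hosts, 0.045 (SE 0.11) for KO T cells against the reference and 0.15 (SE 0.12) between T cell genotypes, with limma adjusted p of 0.786, 0.904 and 0.9998.

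Bad, a BH3-only protein that growth factor kinases hold inactive by phosphorylation, had the largest group difference and the largest scatter of the members. Its log2 signals were 8.02, 7.21, 7.80 and 7.94 in the reference and 7.62, 7.88 and 7.10 in WT cells from KO hosts. In KO T cells they were 6.80, 6.72, 6.87 and 8.03. Arrays 1 to 3 of KO T cells were thus below every other array, and array 4 was above every other array. The difference between KO T cells and the reference was -0.64 (SE 0.29, 95% interval -1.27 to -0.0034; limma adjusted p = 0.589), with an exact permutation p (two-sided) of 0.143. With any 1 array left out it ran from -0.94, without array 4 of KO T cells, to -0.51. At an unadjusted limma p under 0.05 it was found in 9 of 25 alternative settings. Between T cell genotypes in KO hosts the difference was -0.43 (SE 0.31, 95% interval -1.11 to 0.25; limma adjusted p = 0.9998), and it was -0.74 without array 4. Between hosts it was -0.21 (SE 0.31; limma adjusted p = 0.833).

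Bad is the 1 member named by 2 rows, and the second (probe set 6867879) did not show the same groups. On it the reference lay at 6.61 ± 0.17 (SD, n = 4), WT cells from KO hosts at 6.74 ± 0.34 (SD, n = 3) and KO T cells at 6.53 ± 0.31 (SD, n = 4). KO T cells differed from the reference by -0.081 on this row, against -0.64 on the row of higher mean (probe set 6871266). Between hosts the difference was 0.13 on this row and -0.21 on the other. Across the 11 arrays the 2 rows correlated at 0.57, given as a description. With the mean of both rows the difference between KO T cells and the reference was -0.36.

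**Figure D2:**
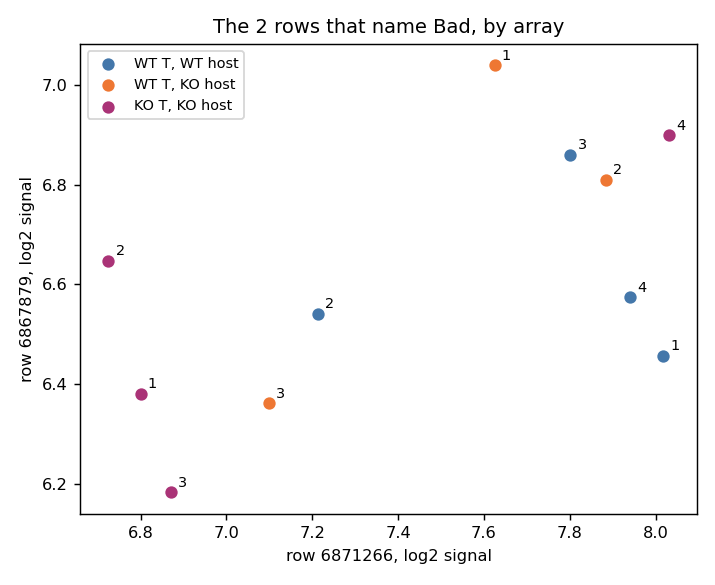
The 2 rows that name Bad, each point 1 array with its replicate number, with log2 signal of probe set 6871266 on the horizontal axis and of 6867879 on the vertical axis. Arrays 1 to 3 of KO T cells stand apart at 6.72 to 6.87 on the horizontal axis but lie between 6.18 and 6.65 on the vertical axis, beside arrays of other groups.

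Bak1, which encodes the pore-forming effector Bak, had log2 signals of 10.18, 10.03, 10.03 and 10.01 in WT T cells from WT hosts. In WT cells from KO hosts it was at 9.88, 9.74 and 9.65. In KO T cells it was at 10.01, 9.98, 9.62 and 10.14. All 3 arrays of WT cells from KO hosts were below all 4 from WT hosts, while KO T cells spread over both ranges. The host difference in WT T cells was -0.30 (SE 0.13, 95% interval -0.59 to -0.017), a fold change of 0.81. Its exact two-sided permutation p was 0.0286, the smallest that 4 against 3 arrays allow, and its limma adjusted p was 0.654. At an unadjusted limma p under 0.05 it was found in 16 of 25 alternative settings, and not with median centring, the replicate block or value range as a covariate, among others. Groups did not overlap in that direction for 5.32% of genes tested, and 808 genes did so.

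In KO T cells from KO hosts, a separate group of arrays, Bak1 differed less from the reference, by -0.12 (SE 0.12, 95% interval -0.39 to 0.14; limma adjusted p = 0.745). That interval includes the host difference of -0.30 in WT T cells. From WT T cells in KO hosts they differed by 0.18 (SE 0.13, 95% interval -0.10 to 0.47; limma adjusted p = 0.9998). Without array 3, the lowest of the KO T cells, these differences were -0.015 and 0.29. With any 1 array left out, the difference from WT cells in KO hosts ran from 0.12 to 0.29.

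Markers of monocytes and macrophages, cells the sort was meant to leave out, differed between the same arrays. All 15 of 17 listed markers that have a row were higher, with no filter, in WT T cells between hosts (median 0.43) and in KO T cells against the reference (median 0.49). Of these 14 were tested, 2 of which (Adgre1 and Msr1) lay under the filter in the reference and passed it through the KO-host groups, and 0 passed the adjusted threshold. The mean log2 signal of the list was between 6.32 and 6.51 on the reference arrays, between 6.74 and 7.24 in WT cells from KO hosts and between 6.70 and 7.06 in KO T cells. Csf1r, the receptor that defines these cells, was between 5.60 and 6.23 on reference arrays and between 6.32 and 7.16 in WT cells from KO hosts. The 4 tested NK cell markers of 6 listed, 2 of which (Tyrobp and Fcer1g) myeloid cells also express, were higher in both comparisons too, with a mean between 6.31 and 6.65, between 6.71 and 7.18 and between 6.84 and 7.23 in the 3 groups. The mean of 6 tested dendritic cell markers of 9 listed was between 5.99 and 6.10, between 6.25 and 6.39 and between 6.19 and 6.53. With no filter, 6 of 8 dendritic cell markers were higher and 2 lower between hosts (median 0.10). In KO T cells against the reference 4 were higher and 4 lower (median 0.059), so the rise of that mean was not shared by the whole list. Neutrophil markers, 8 tested of 10 listed, had a mean between 4.81 and 4.97 in the reference, between 4.77 and 5.12 in WT cells from KO hosts and between 5.21 and 5.502 in KO T cells, which were above all other arrays. S100a8 and S100a9, calcium-binding proteins abundant in neutrophils and named here after their values were seen, differed by 2.72 (SE 0.55) and 1.095 (SE 0.23) between KO T cells and the reference, with limma adjusted p of 0.279 and 0.317. With no filter, 5 of 10 neutrophil markers were higher in KO T cells than in the reference and 10 of 10 than in WT cells of KO hosts. Some other lists went the other way, with no filter. Between hosts, 8 of 8 stroma and endothelium markers (median -0.13) and 6 of 8 tumor epithelium markers (median -0.10) were lower. So were 4 of 5 B cell markers (median -0.14). Against the reference, KO T cells had 8 of 8, 8 of 8 and 5 of 5 lower in that order (medians -0.13, -0.20 and -0.10). The part of these markers in the Bcl2, Bad and Bak1 differences was not tested. Arrays 1 and 4 of the reference also had a narrower range of values, and without both the host difference was 0.22 for Bcl2 and -0.27 for Bak1, while with value range as a covariate it was 0.11 for Bcl2 and -0.24 for Bak1.

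**Figure D3:**
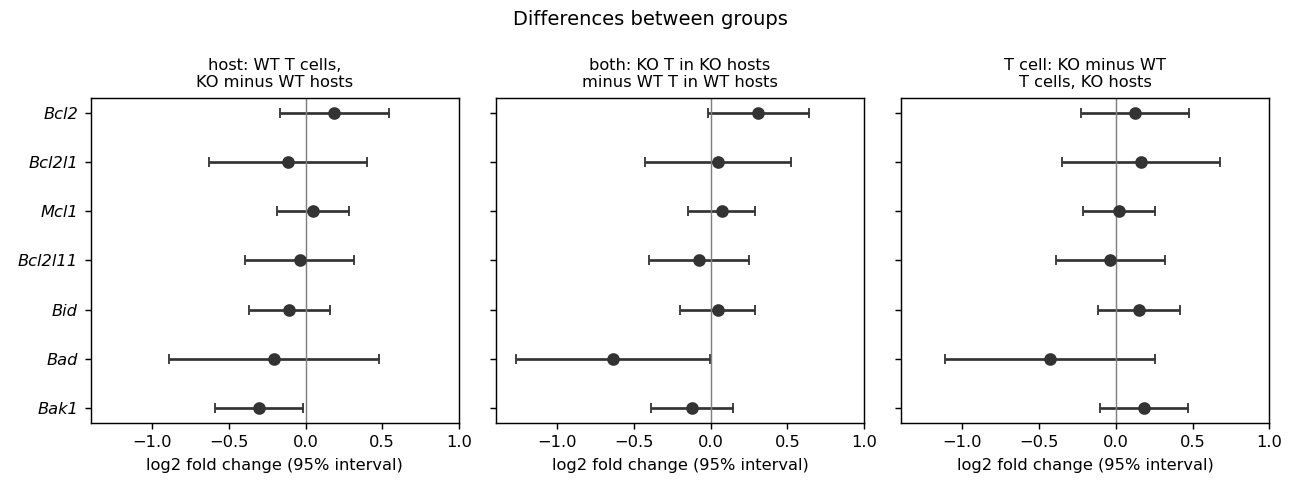
Log2 fold change of each member with its 95% interval (limma) in the 3 comparisons, hosts on the left, both genotypes in the middle and T cell genotype on the right. The intervals of Bak1 between hosts and of Bad for both genotypes end just short of 0, and all others include it.

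Several members had an extreme value on the same array. Array 3 of KO T cells held the highest of the 11 values for Bcl2, Bcl2l1 and Bcl2l11 and the lowest for Mcl1 and Bak1, 5 of 7 members, while it held an extreme for 27.2% of all genes tested. That share ran from 10.2% to 30.6% over the arrays, and array 4 of the reference had the highest. Array 2 of KO T cells held an extreme for 3 members, the highest Bid and the lowest Bcl2l11 and Bad. Within-group SDs were 0.48 for Bad and 0.35 for Bcl2l1, above those of 94.2% and 86.3% of genes, 0.22 for Bcl2 and Bcl2l11, near the median, and 0.16 for Bak1 and 0.13 for Bid, below it.

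**Figure D4:**
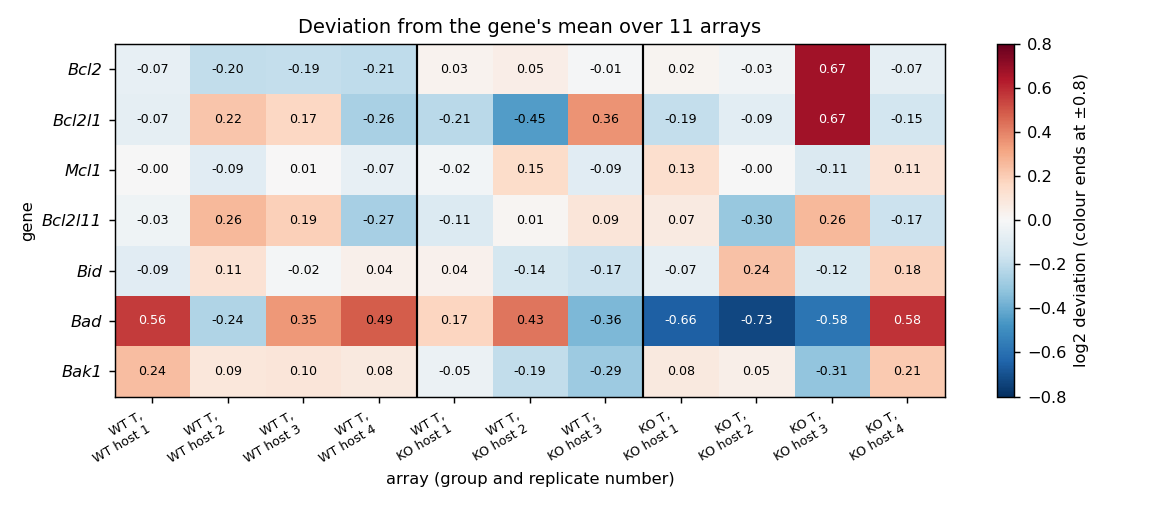
Deviation of each member from its own mean over the 11 arrays, in log2 units, with arrays in columns by group and genes in rows by role (survival genes, BH3-only genes, effector). Array 3 of KO T cells shows 0.67 for both Bcl2 and Bcl2l1 beside -0.31 for Bak1, and Bad is between -0.73 and -0.58 on arrays 1 to 3 of KO T cells and 0.58 on array 4.

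Over the 11 arrays, 21 pairs of members were compared, and 0 passed after Benjamini-Hochberg adjustment of permutation p-values from 100000 resamples, while 3 had an unadjusted p under 0.05. Bcl2 and Bak1 were inversely related (Pearson r = -0.66, permutation p = 0.0100, adjusted p = 0.141; Spearman rho = -0.68, permutation p = 0.0251, adjusted p = 0.285). Without the 2 arrays farthest from the median of Bcl2 r was -0.50, and on deviations from group means it was -0.76. Bcl2l1 and Mcl1 were inversely related as well (r = -0.71, permutation p = 0.0134, adjusted p = 0.141; rho = -0.64, permutation p = 0.0407, adjusted p = 0.285), with r = -0.56 without 2 arrays. Bcl2l1 and Bcl2l11 ran together (r = 0.67, permutation p = 0.0252, adjusted p = 0.176; rho = 0.66, permutation p = 0.0312, adjusted p = 0.285), with r = 0.55 without 2 arrays. Bcl2 and Bcl2l11, the survival and death genes whose balance is best known in T cells, gave r = 0.34 (permutation p = 0.340, adjusted p = 0.536) and rho = 0.23 (permutation p = 0.50, adjusted p = 0.753). That r became -0.51 without array 3 of KO T cells and array 4 of the reference, so its sign rests on those arrays.

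The genes most like each member, by Pearson r over the 11 arrays among all genes tested and given as a description, were Pllp (0.95), Cdc42se2 (0.93) and Baz1a (0.91) for Bcl2. They were Trpc2, Mcu and Ubap2 (each 0.91) for Bcl2l1 and Creb3l2 (0.93), Csnk1g1 (0.92) and Abhd17b (0.90) for Bcl2l11. For Mcl1 they were Cct6a, Snx19 (each 0.88) and Hmgn5 (0.87). For Bak1 they were the kallikrein genes Klk7 (0.94) and Klk6 (0.93) and Myo18b (0.93), for Bid Syce1 (0.91), 4930506A18Rik (0.89) and Rasgrf2 (0.88), and for Bad Gstt3 (0.88), 4930583K01Rik (0.86) and Glod5 (0.85). Each was picked from the coefficients of all 15194 genes.

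The pathway around these genes was described by 7 lists with 97 entries, of which 82 were tested. None passed the adjusted threshold in any comparison. At an unadjusted limma p under 0.05, 8 of 82 (9.76%) were found between hosts in WT T cells, 7 higher and 1 lower, beside 7.48% of all genes. KO T cells against the reference gave 9 of 82 (10.98%), all higher, beside 8.46% (4.79% higher). The T cell genotypes in KO hosts gave 7 of 82 (8.54%), 3 higher and 4 lower, beside 3.42%. The lists were chosen with earlier results of these data known, so these shares are a description and no test of the lists. Medians over the 82 were 0.042, 0.041 and 0.032, beside -0.025, -0.017 and 0.011 over all genes.

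Among the other Bcl2 family genes, 10 of 16 listed were tested, and Bcl2l2, Bcl2l10 and Bcl2l14 lay under the filter. Bcl2a1a, Bcl2a1b and Bcl2a1d were not analysed here, since no row names any of them alone. In the comparison of KO T cells with the reference, Pmaip1, which encodes the p53-induced BH3-only protein Noxa, was at 0.36 (SE 0.26), and Bmf, another BH3-only gene, at -0.29 (SE 0.22). Bmf was lower in all 4 arrays of KO T cells (5.34 to 5.67) than in all 3 of WT cells from KO hosts (5.83 to 6.33), a difference of -0.60 (SE 0.24; limma adjusted p = 0.9998). Of all genes tested, 1.81% were lower without overlap in that comparison. Bcl2l13 was at 0.49 (SE 0.23) and Bcl2l12 at 0.30 (SE 0.14) in the same comparison, both with a limma adjusted p of 0.9998. Bbc3, which encodes the BH3-only protein Puma, was at -0.18 (SE 0.13) between hosts.

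Downstream of the pores, 18 of 20 listed genes of the apoptosome, caspases and their inhibitors were tested. Endog, a mitochondrial nuclease, was at 0.58 (SE 0.18; limma adjusted p = 0.637) between hosts in WT T cells and at -0.83 (SE 0.18; limma adjusted p = 0.9998) between T cell genotypes in KO hosts. Its range was 6.58 to 7.10 in the reference, 7.09 to 7.70 in WT cells from KO hosts and 6.42 to 6.96 in KO T cells, so the last pair of groups did not overlap. That pair did not overlap in the same direction for 1.81% of all genes tested. Birc5, the mitotic protein survivin of the inhibitor family, was at 0.37 (SE 0.12, limma adjusted p = 0.468) in KO T cells against the reference. Those groups did not overlap, as they did not in that direction for 2.61% of all genes tested. Casp6, an executioner caspase, was at 0.49 (SE 0.16; limma adjusted p = 0.637) between hosts. Apaf1, the scaffold of the apoptosome, was at 0.28 (SE 0.12; limma adjusted p = 0.9998) between T cell genotypes.

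Of the death receptor pathway 13 of 14 listed genes were tested. Ripk3, the kinase of necroptosis, had the largest difference among the 82 tested genes of the 7 lists. Its log2 signal was 7.09 to 7.78 in the reference, 6.76 to 7.87 in WT cells from KO hosts and 8.02 to 8.87 in KO T cells, which were above all other arrays. It differed by 0.95 (SE 0.27; limma adjusted p = 0.409) from the reference and by 1.05 (SE 0.29; limma adjusted p = 0.9998) from WT T cells in KO hosts. Of all genes tested, 2.61% and 2.26% were higher without overlap in these comparisons, in that order. The mean of the neutrophil markers was above all other arrays in the same 4 arrays of KO T cells. Of the 8 tested, 3 were higher and 5 lower than in the reference (median -0.016). All 8 were higher than in WT T cells of KO hosts (median 0.095). Between T cell genotypes in KO hosts S100a9 differed by 1.02 (SE 0.25), with no overlap, and S100a8 by 1.54 (SE 0.59), and their part in the Ripk3 difference was not tested. Casp8, the initiator caspase that cleaves Bid, was at 0.27 (SE 0.13) and its inhibitor Cflar at 0.31 (SE 0.16) between hosts, with adjusted p of 0.654 and 0.664.

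Upstream of Bcl2, 12 of 14 cytokine signalling genes were tested. Il15ra, a receptor chain for interleukin 15, was higher on all 3 arrays of WT cells from KO hosts (5.74 to 6.12) and all 4 of KO T cells (5.61 to 5.84) than on reference arrays (5.12 to 5.52). It was at 0.57 (SE 0.13; limma adjusted p = 0.592) between hosts. Higher without overlap were 3.57% of all genes tested between hosts and 2.61% in KO T cells against the reference. The mean of the monocyte and macrophage markers was above the reference arrays in both KO-host groups, and the part of those cells in the Il15ra difference was not tested. Cish, a feedback gene of STAT5, was at 0.39 (SE 0.14; limma adjusted p = 0.654) between hosts and at 0.34 (SE 0.13; limma adjusted p = 0.550) in KO T cells against the reference. Il7r, the receptor chain through which interleukin 7 maintains Bcl2, was at -0.54 (SE 0.35) between T cell genotypes, with an adjusted p of 0.9998.

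Of the genes listed around Bim, among them kinase and forkhead genes, 10 of 11 were tested. Trib3, a stress-induced pseudokinase, was at -0.32 (SE 0.14; limma adjusted p = 0.654) between hosts, the 1 lower gene counted there. Klf2, a FOXO1 target that maintains quiescence, was at 0.34 (SE 0.16) between hosts and at -0.50 (SE 0.16; limma adjusted p = 0.9998) between T cell genotypes. Ddit3, a stress factor known to induce Bim, was at -0.52 (SE 0.22) between T cell genotypes. Akt2 was at 0.27 (SE 0.12; limma adjusted p = 0.572) in KO T cells against the reference. For turnover of Mcl1 and Bim proteins, 8 of 10 were tested, and the kinase Mapk8 was at 0.55 (SE 0.19) and the ubiquitin ligase subunit Fbxw7, which targets Mcl-1, at 0.37 (SE 0.15) between hosts, with an adjusted p of 0.654 each.

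Bax is a target of p53. Of 12 listed genes, which are p53, other targets and Gadd45b, a relative of the target Gadd45a, 11 were tested. Those of unadjusted p under 0.05 were 3 in KO T cells against the reference, where 8.46% of all genes were. Gadd45b was at 0.47 (SE 0.13; limma adjusted p = 0.409), the nuclease Aen at 0.67 (SE 0.21; limma adjusted p = 0.465) and the cell cycle inhibitor Cdkn1a at 0.43 (SE 0.18; limma adjusted p = 0.5684). Gadd45a, named here for its relation to Gadd45b, was at -0.13 (SE 0.27). Gadd45b and Aen did not overlap between those groups, as 5.02% of all genes did not. The list's median was -0.0028 there, with 5 higher and 6 lower.

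**Figure D5:**
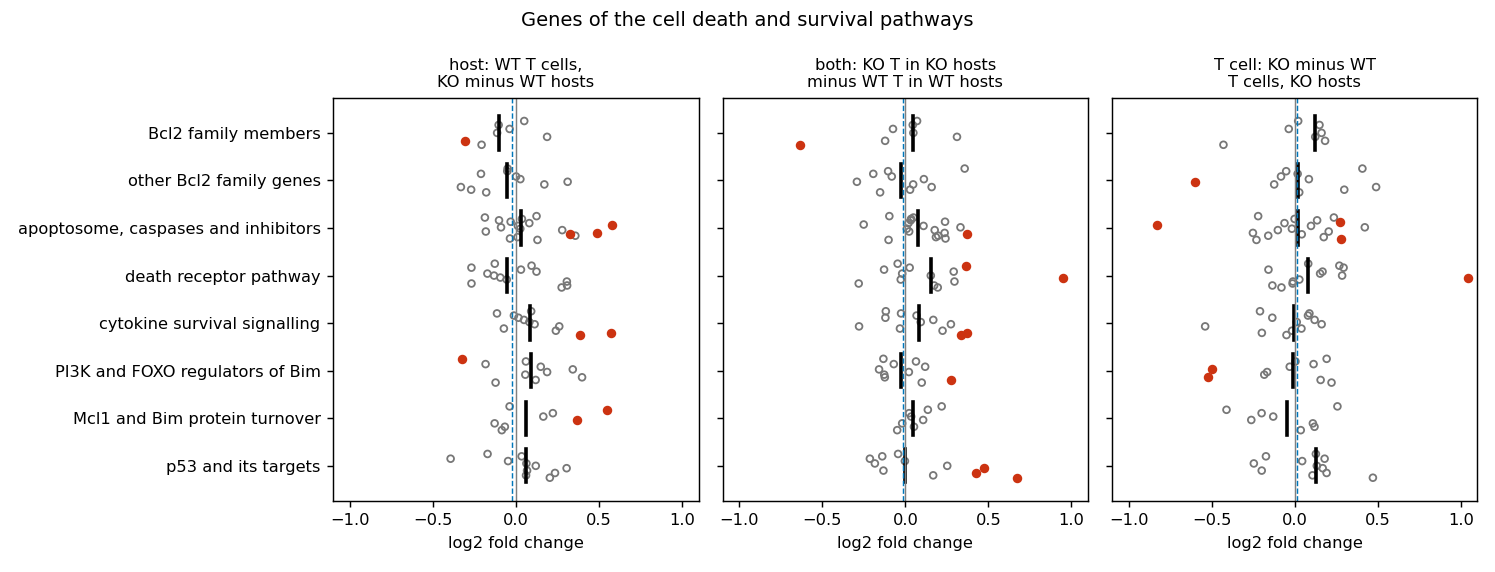
Log2 fold change of every tested gene of the Bcl2 family members and the 7 pathway lists in the 3 comparisons. Filled points have an unadjusted limma p under 0.05, short bars are list medians and the dashed line is the median of all genes, and 0 of these genes passed the adjusted threshold.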

How the data were processed

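CD8 T cells sorted from tumors gave RNA (Nanoprep kit), amplified by Ovation Pico WTA and labelled with biotin, per the labels' protocols. The authors deposited log2 array signals, 115830 rows by 11 arrays. RMA, Partek and build mm9 are named per the submitters' processing notes, with no versions. The log2 scale was read from the values (1.27 to 14.4).

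Of the rows, 25539 name 1 gene. Genes whose mean lay below the 25th percentile, a log2 signal of 4.33, were not tested. Groups came from the sample titles. Differences were tested with limma (version 3.58.1, R 4.3.3; lmFit and eBayes on all 11 arrays, group means alone, Benjamini-Hochberg over 15194 genes), checked on simulated data, and for single members with exact two-sided permutation tests of the mean difference. P-values measure the spread between these arrays, which may be technical. At most 21 values were identical in a pair of arrays.

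The members and lists were chosen with earlier results of these data known. Named genes are the members, the 3 genes of lowest p per list and comparison, the 3 genes most like each member, Lgals3 and set markers, not all of which are printed. Pairs of members number 21, since Bax had no row. Alternatives covered normalization, the filter, the row per gene, the variance model, weights, a replicate block, the value range and each array left out.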

Additional observations from a re-analysis of the deposited data

Results flagged for a closer look

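In 5 of 14 sets of 4 arrays of a member, 1 array stood far from the other 3 by Dixon's criterion, which chance meets in about 1 in 20. None of 6 sets of marker means or value range did. In KO T cells these were Bcl2 on array 3 (7.07), Bcl2l1 on array 3 (6.84) and Bad on array 4 (8.03). In the reference they were Bcl2 (6.33) and Bak1 (10.18), both on array 1. The values are log2 signals, and arrays are shared between them. The cause was not tested.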

How the results depend on the processing

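No member passed the adjusted threshold under any of 25 alternatives, and the lowest adjusted p of a member was 0.382 (limma), for Bad in KO T cells against the reference without array 4 of KO T cells. The number of genes passing in that comparison, 0 as reported, was 2 with quantile normalization, 2 with median centring, 2 with the filter at the 50th percentile, 2 with rows of a gene averaged and 0 to 1 with an array left out. The members' median moved there from 0.045 to -0.056 with array weights, -0.060 with value range as a covariate and -0.090 without the 2 arrays of narrowest range, and was -0.043 to 0.053 with an array left out. Between hosts it moved from -0.10 to -0.22 with value range as a covariate, and to -0.039 with median centring, -0.039 with rows averaged and -0.057 with array weights. It was -0.14 to -0.044 with an array left out, and the median of all genes was -0.025. Between T cell genotypes it was -0.042 to 0.16 with an array left out, the lowest without array 3 of KO T cells.

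Signs turned for small differences. Between hosts, Mcl1 was -0.059 with quantile normalization and -0.029 with cyclic loess, Bcl2l11 0.027 with median centring and Bad 0.029 without the narrowest arrays. In KO T cells against the reference, Bcl2l1 was -0.056 with array weights, -0.16 with value range as a covariate and -0.13 without the narrowest arrays. Between T cell genotypes Bcl2l11 was 0.0018 with quantile normalization. With an array left out, host differences ran from -0.34 to 0.060 for Bcl2l1, -0.14 to 0.035 for Bcl2l11, -0.019 to 0.10 for Mcl1 and -0.38 to 0.012 for Bad. Against the reference, KO T cells ran from -0.16 to 0.13 for Bcl2l1, -0.18 to 0.015 for Bcl2l11 and -0.015 to 0.10 for Bid. Between T cell genotypes the ranges were -0.050 to 0.20 for Bcl2, -0.042 to 0.39 for Bcl2l1, -0.13 to 0.053 for Bcl2l11 and -0.030 to 0.090 for Mcl1. Apart from fewer arrays or genes in a fit, the cause was not tested.

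No batch or pairing is given, and whether arrays of the same title number were handled together cannot be decided from correlations. The 10 same-number pairs correlated at -0.11 to 0.12 (mean 0.022) in their deviations from group means, and 30 others at -0.24 to 0.18 (mean -0.0075). With a replicate block 3 genes passed in KO T cells against the reference, and Bcl2l11 between T cell genotypes was 0.037. The number of arrays limits all values.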
